A study of Mus musculus with 31 samples.

Results

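Lipopolysaccharide (LPS), an outer-wall component of Gram-negative bacteria, is sensed through a small number of proteins, and 10 genes for these and for receptors of other microbial patterns are described here: Tlr4, Cd14, Ly96, Myd88, Ticam2, Irak3, Tlr2, Clec4e, Clec4d and Fpr2. They were chosen by name, with earlier results of these data known. The shares of all genes given beside their counts are therefore context and not an independent test. Each gene was read from the probe set that the platform annotation assigns to that gene alone, taking the brightest where there were several. This gave 9 genes, each with 1 probe set, out of 19938 genes on the array, and all 9 passed the filter on low values with 14705 genes in all. Fpr2 had no probe set of its own and was not analysed here.

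The data are 31 arrays of whole lung from male mice labelled 6 weeks of age, of 2 inbred strains, AKR and C57BL/6, the latter shortened to C57. Exposure was to cigarette smoke or to room air, and was followed by an intratracheal dose of LPS or of its saline vehicle. The resulting groups are C57 air saline, C57 smoke saline, C57 air LPS, C57 smoke LPS and the same 4 groups of AKR, with 3 arrays each except AKR smoke LPS, which has 2. Another 3 groups breathed room air with no instillation: C57 for 6 weeks (3 arrays), AKR for 6 weeks (3 arrays) and AKR for 3 weeks (2 arrays). For the instilled mice the sample titles say 3 weeks and the series description says 6 weeks, so the length of exposure before instillation is uncertain. The titles call the arrays biological replicates without naming animals, and p-values measure the spread between these arrays. No group had smoke without instillation. The tissue labels were borne out by lung markers: Sftpc, the surfactant protein gene of alveolar type 2 cells, lay between log2 12.99 and 13.83 on every array.

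LPS is passed by the surface protein CD14 to a receptor made of Toll-like receptor 4 (Tlr4) and its small LPS-binding partner MD-2 (Ly96). The receptor signals through the adaptor MyD88 at the cell surface and, after uptake into the cell, through a second route that needs the bridging adaptor TRAM (Ticam2). In the lung these genes are used by resident and recruited macrophages, monocytes and neutrophils, and also by the airway and vessel lining. Irak3 encodes IRAK-M, a relative of the signalling kinases that holds this signalling back. Tlr2 recognises bacterial lipoproteins, and Clec4e (Mincle) and Clec4d (MCL), neighbours on chromosome 6, encode C-type lectins that recognise microbial glycolipids.

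Promoters are shown first for 4 genes whose LPS responses follow, each with a motif of a transcription factor known from macrophages. They come from RefSeq, build GRCm38.p6, and cover the 250 bases before a transcription start and 15 bases after it, read 5′ to 3′ on the gene's strand. The search itself covered 50 bases after the start. Capitals mark matches on either strand to the kappa-B motif, which NF-kappa-B binds, in Tlr2 (chr3:83841594-83841858, minus strand), and to the PU.1 core GAGGAA in Clec4e (chr6:123289857-123290121, minus strand) and Clec4d (chr6:123261857-123262121, plus strand). In Myd88 (chr9:119340004-119340268, minus strand) they mark the core of the interferon-stimulated response element, GAAA followed after any 2 bases by GAAA.
Tlr2: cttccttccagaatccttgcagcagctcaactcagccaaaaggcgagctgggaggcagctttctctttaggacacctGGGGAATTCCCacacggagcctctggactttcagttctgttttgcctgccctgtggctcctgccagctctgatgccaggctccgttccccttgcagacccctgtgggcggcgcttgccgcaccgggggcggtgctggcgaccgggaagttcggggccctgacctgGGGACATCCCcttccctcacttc
Clec4e: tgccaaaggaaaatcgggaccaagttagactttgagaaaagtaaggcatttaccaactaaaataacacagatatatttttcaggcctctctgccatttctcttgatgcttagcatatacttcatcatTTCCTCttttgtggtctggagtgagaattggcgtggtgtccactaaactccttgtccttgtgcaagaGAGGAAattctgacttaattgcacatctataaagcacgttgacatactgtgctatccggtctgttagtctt
Clec4d: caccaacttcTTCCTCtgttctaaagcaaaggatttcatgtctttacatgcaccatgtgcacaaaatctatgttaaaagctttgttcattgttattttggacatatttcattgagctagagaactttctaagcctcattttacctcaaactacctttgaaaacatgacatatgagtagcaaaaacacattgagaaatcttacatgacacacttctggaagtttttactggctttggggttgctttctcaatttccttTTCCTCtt
Myd88: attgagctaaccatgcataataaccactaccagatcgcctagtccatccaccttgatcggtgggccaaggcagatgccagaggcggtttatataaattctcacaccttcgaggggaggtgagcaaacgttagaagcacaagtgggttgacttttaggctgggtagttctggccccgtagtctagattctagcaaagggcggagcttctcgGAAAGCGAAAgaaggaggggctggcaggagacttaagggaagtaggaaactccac
Tlr2 had 3 kappa-B matches, at bases -173, -172 and -8 counted from the start, of which the upstream pair overlap. This start is not the outermost start of the Tlr2 gene record. Clec4e had 2 PU.1 core matches (-123 and -56) and Clec4d had 3 (-240, 8 and 40, the last lying beyond the printed stretch), and Myd88 had 1 match at -40. Over all 32851 promoters of the same length, 4.51% held the kappa-B motif, 28.3% the PU.1 core and 3.44% the interferon element core. Among the 7 promoters examined of 6 of the genes (Myd88, Irak3, Tlr2, Clec4e, Clec4d and Fpr2), 1 held kappa-B, 4 the PU.1 core and 2 the interferon element core. For TGANTCA (AP-1) these counts were 0 of 7 against 7.81% of all promoters, and for TTNNGNAA (C/EBP) 5 of 7 against 40.7%. No promoter of Tlr4, Cd14, Ly96 or Ticam2 was examined, so these counts do not describe the whole list of genes. A match describes letters in this window only.

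The values are log2 intensities that the authors had normalized, so 1 unit is a doubling. They fall into sets of arrays with different distributions: 18 arrays (all C57, and AKR room air for 6 weeks) with medians from 6.96 to 7.10, and 13 arrays (all other AKR) with medians from 6.80 to 6.90. Strain and set of arrays cannot be told apart except in room air at 6 weeks, and most comparisons below therefore stay within a strain. In addition, a pair of C57 arrays departs from its labels. Saa3, an acute-phase gene induced by LPS, read 12.47 on the array labelled C57 smoke saline 3, where the other arrays of that label read 6.10 and 6.36. It read 6.06 on the array labelled C57 smoke LPS 3, against 12.64 and 12.85 on the others. The labels were kept. Each count of the 9 genes at an adjusted p under 0.05 is also given without both arrays where it differs. Most counts at an unadjusted p under 0.05 are with all arrays only, and several were higher without the pair. The fit shares 1 estimate of spread per gene over all groups, so the pair widens standard errors of the 9 genes in every comparison. For Cd14, C57 air LPS against C57 room air alone had 0.61 with all arrays and 0.22 without the pair. In these lysates of whole lung, fewer cells of a type and less RNA per cell cannot be told apart.

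**Figure D1:**
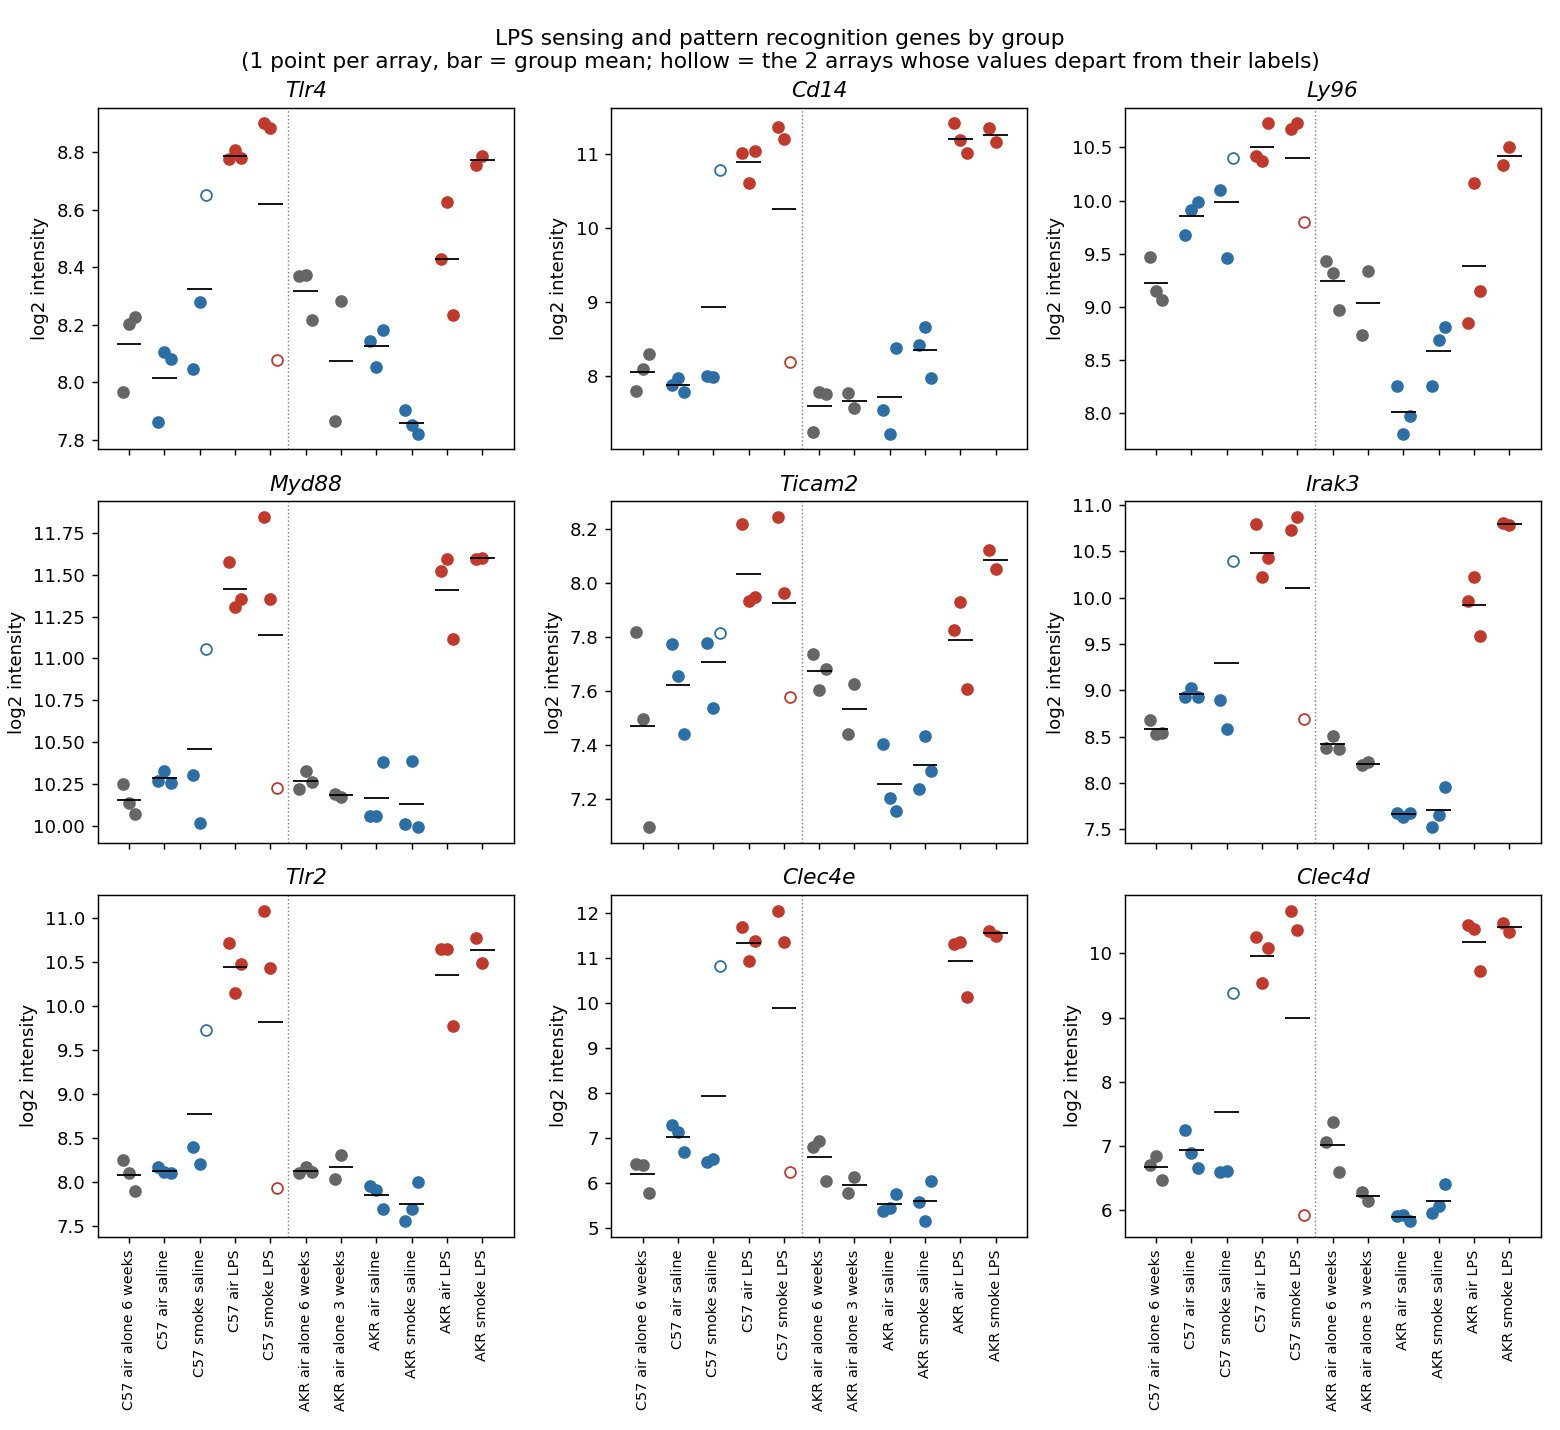
Log2 intensity of the 9 measured genes (vertical axes, scaled per gene) in the 11 groups (horizontal axis), with 1 point per array and a bar at the group mean; grey is room air alone, blue saline, red LPS, and hollow points are the 2 C57 smoke arrays whose values depart from their labels. LPS arrays lie above saline arrays of the same strain and exposure for every gene once the hollow points are set aside, and the AKR air saline arrays of Ly96 and Irak3 lie below the AKR arrays of room air alone.

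Instilled LPS was followed by higher levels of most of these genes in both strains, with the widest differences at Clec4e and Clec4d in both strains after air and in AKR after smoke, and changes under 1 log2 unit at Tlr4 and Ticam2. After room air, 7 of 9 genes rose in C57 (median log2 change 1.52, all genes -0.01), where 11.5% of all genes tested rose (limma, Benjamini-Hochberg adjusted p under 0.05). In AKR 8 of 9 rose (median 2.26, all genes -0.04), where 9.45% of all genes rose. After smoke, all 9 rose in AKR (median 2.88), where 16.9% of all genes rose. Without the doubted arrays the counts were 8 of 9 (15.2% of all genes), 9 of 9 (11.8%) and 9 of 9 (18.6%). With them left out, LPS and saline arrays did not overlap for any of the 9 genes in C57 after air (24% of all genes were higher without overlap), C57 after smoke (24.9%), AKR after air (15.4%) or AKR after smoke (29.5%). With all arrays, 0 of the 9 were free of overlap in C57 after smoke. The pair was doubted for its readings of an LPS-induced gene, so the separation in that comparison is not independent of leaving it out. Of all genes called after air in C57, 72.7% were higher, and 59.7% after quantile normalization over all arrays.

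Cd14, which delivers LPS to the receptor, read 7.89, 7.98 and 7.78 on the C57 air saline arrays and 11.02, 10.61 and 11.04 on the C57 air LPS arrays. In AKR after air it read 7.54, 7.23 and 8.38 with saline and 11.42, 11.19 and 11.01 with LPS. LPS and saline arrays were far apart in both strains, and the highest saline array was AKR air saline 3. Cd14 rose by 3.01 ± 0.61 (SE) on the log2 scale in C57 (8.04-fold, adjusted p = 0.00471) and by 3.49 ± 0.61 in AKR (11.3-fold, adjusted p = 0.000519). The AKR smoke arrays read 8.43, 8.67 and 7.98 with saline and 11.36 and 11.17 with LPS, a rise of 2.91 ± 0.69 (adjusted p = 0.00275). Within each strain the LPS groups held the highest Cd14 means, and the AKR means with LPS after air (11.21 ± 0.20, SD, n = 3) and after smoke (11.26 ± 0.13, SD, n = 2) did not differ beyond their spread.

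Tlr4, the signalling receptor, changed little by comparison. The C57 air saline arrays read 7.86, 8.10 and 8.08 and the C57 air LPS arrays 8.77, 8.81 and 8.78. The groups did not overlap and the LPS arrays lay close together, a rise of 0.77 ± 0.17 (1.71-fold, adjusted p = 0.00588). In AKR after air, saline arrays read 8.14, 8.05 and 8.18 and LPS arrays 8.43, 8.63 and 8.23. The lowest LPS array was barely above the highest saline array, and the difference of 0.30 ± 0.17 did not pass (adjusted p = 0.223; without the doubted arrays 0.044). After smoke, AKR saline arrays read 7.90, 7.85 and 7.82 and LPS arrays 8.76 and 8.79. Here the groups were tight and well separated, and Tlr4 rose by 0.91 ± 0.19 (adjusted p = 0.000881). Room air alone gave AKR Tlr4 means of 8.32 ± 0.09 at 6 weeks (SD, n = 3) and 8.07 ± 0.30 at 3 weeks (SD, n = 2), and AKR smoke saline was lowest of the AKR groups at 7.86 ± 0.04 (SD, n = 3).

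Ly96, the partner that binds LPS itself, gave LPS changes that depended on the reference, as shown further below. Its levels in the strains are listed side by side, but strain and set of arrays cannot be told apart in them. With saline after air it read 9.67, 9.91 and 9.99 in C57 and 8.26, 7.81 and 7.97 in AKR. With LPS it read 10.42, 10.37 and 10.73 in C57 and 8.85, 10.16 and 9.15 in AKR. The AKR LPS arrays were spread over more than 1 log2 unit, with replicate 2 apart from the others. Ly96 rose by 1.37 ± 0.28 in AKR (adjusted p = 0.00193; 0.98 without AKR air LPS replicate 2). In C57 the difference was 0.65 ± 0.28 (adjusted p = 0.119). After smoke, the AKR arrays read 8.26, 8.69 and 8.81 with saline and 10.33 and 10.50 with LPS, a rise of 1.83 ± 0.32 (adjusted p = 0.000222).

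Among the adaptors, Myd88 was high on every array, at or above the 89.4th percentile of its array. It read 10.27, 10.33 and 10.26 with saline and 11.58, 11.31 and 11.36 with LPS in C57 after air, and 10.06, 10.06 and 10.38 with saline and 11.52, 11.59 and 11.12 with LPS in AKR. The changes in the strains were much alike: Myd88 rose by 1.13 ± 0.26 in C57 (adjusted p = 0.00759) and by 1.24 ± 0.26 in AKR (adjusted p = 0.00207). Ticam2, the adaptor of the internal route, read 7.78, 7.66 and 7.44 with saline and 8.22, 7.94 and 7.95 with LPS in C57. The difference of 0.41 ± 0.16 did not pass (adjusted p = 0.0728; without the doubted arrays 0.039). In AKR it read 7.40, 7.21 and 7.16 with saline and 7.83, 7.93 and 7.61 with LPS, and rose by 0.53 ± 0.16 (adjusted p = 0.0208). That call was lost in 4 of 6 fits that each left out 1 array (adjusted p from 0.058 to 0.0987). After smoke in AKR, Myd88 rose by 1.47 ± 0.29 (adjusted p = 0.000728) and Ticam2 by 0.76 ± 0.17 (adjusted p = 0.0022).

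Irak3, the brake, read 8.93, 9.02 and 8.92 with saline and 10.79, 10.22 and 10.43 with LPS in C57 after air. In AKR it read 7.68, 7.63 and 7.68 with saline and 9.96, 10.22 and 9.59 with LPS. The saline arrays of each strain lay close together, and every LPS array was above them. Irak3 rose by 1.52 ± 0.39 in C57 (adjusted p = 0.0129) and by 2.26 ± 0.39 in AKR (adjusted p = 0.000489). After smoke, AKR arrays read 7.52, 7.65 and 7.96 with saline and 10.81 and 10.78 with LPS, a rise of 3.08 ± 0.44 (8.45-fold, adjusted p = 3.43e-05). In order of mean, AKR Irak3 went from air saline (7.66 ± 0.03, SD) and smoke saline (7.71 ± 0.22), which did not differ beyond their spread, through room air alone for 3 weeks (8.21 ± 0.02, n = 2) and for 6 weeks (8.42 ± 0.08, in the other set of arrays) to air LPS (9.92 ± 0.32) and smoke LPS (10.79 ± 0.02, n = 2).

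Among the other receptors, Tlr2 rose by 2.32 ± 0.48 in C57 after air (adjusted p = 0.00479), from arrays at 8.17, 8.11 and 8.09 to arrays at 10.72, 10.14 and 10.47. In AKR it rose by 2.50 ± 0.48 (adjusted p = 0.000924), from 7.96, 7.91 and 7.69 to 10.64, 10.64 and 9.77. AKR air LPS 3 held the lowest LPS reading of Tlr2 in that strain, and it was also the lowest AKR air LPS array for Tlr4, Cd14, Myd88, Ticam2, Irak3, Clec4e and Clec4d.

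Clec4e read 7.29, 7.13 and 6.69 with saline and 11.68, 10.93 and 11.38 with LPS in C57 after air, and 5.38, 5.45 and 5.76 with saline and 11.32, 11.36 and 10.14 with LPS in AKR. It rose by 4.30 ± 1.00 in C57 (19.7-fold, adjusted p = 0.00785) and by 5.41 ± 1.00 in AKR (42.5-fold, adjusted p = 0.000742), and after smoke in AKR by 5.95 ± 1.12 (61.8-fold, adjusted p = 0.000458). Clec4e lay at or under the 40th percentile of the array on 13 of the 31 arrays, and Clec4d on 7. At that depth of signal a level is poorly measured, so the folds of both lectins rest on the dim side. Clec4d read 7.25, 6.89 and 6.66 with saline and 10.26, 9.54 and 10.08 with LPS in C57, a rise of 3.02 ± 0.77 (adjusted p = 0.0117). In AKR it read 5.92, 5.93 and 5.83 with saline and 10.44, 10.37 and 9.73 with LPS, a rise of 4.29 ± 0.77 (adjusted p = 0.000582).

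**Figure D2:**
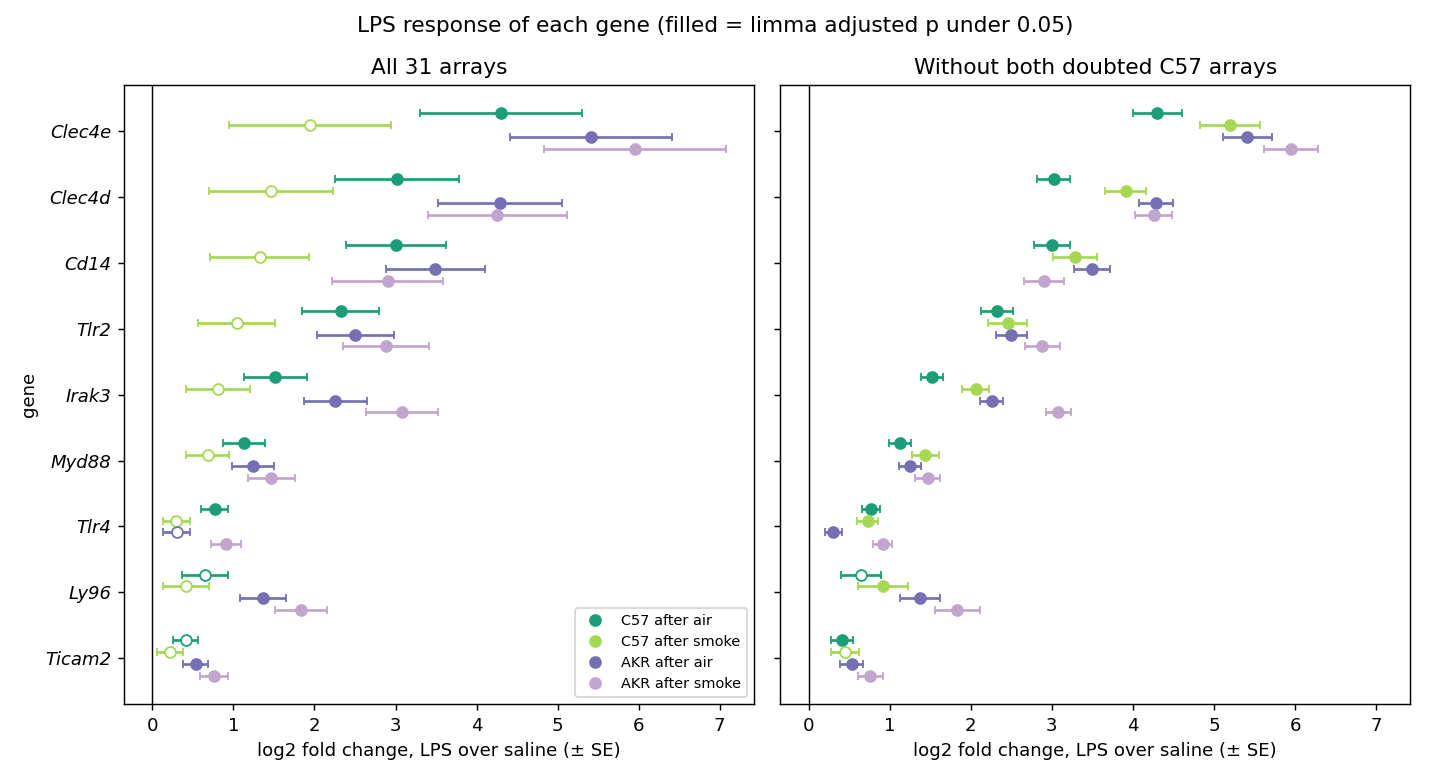
Log2 fold change of LPS over saline (horizontal axis, ± SE of the limma fit) for the 9 genes (vertical axis), by strain and exposure, with all 31 arrays on the left and without the 2 doubted C57 smoke arrays on the right; filled points passed at an adjusted p under 0.05. Clec4e has the largest change in each of the 4 comparisons, and the changes of C57 after smoke range from 0.22 to 1.95 with all arrays and from 0.45 to 5.20 without the pair.

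C57 after smoke could not be read with its labels as they stand. With all arrays, 0 of 9 genes passed and limma called 0% of all genes. At an unadjusted p under 0.05, 3 of 9 (Cd14, Myd88 and Tlr2) and 8.84% of all genes did. The groups of 3 each hold 1 of the doubted arrays: Clec4e read 6.46, 6.54 and 10.82 under the saline label and 12.05, 11.35 and 6.26 under the LPS label. Without both arrays, 2 against 2, 8 of 9 genes rose, with 10.9% of all genes. Clec4e rose by 5.20 ± 0.37, Cd14 by 3.28 ± 0.27, Irak3 by 2.06 ± 0.17 and Ly96 by 0.92 ± 0.31 (adjusted p = 0.0358), and Ticam2 differed by 0.45 ± 0.17 (adjusted p = 0.0714). Leaving out C57 smoke LPS 3 alone gave 7 of 9. The pair was doubted for its readings of Saa3, an LPS-induced gene, so these counts are not independent of that choice.

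Room air alone served as a further reference, a comparison added after the data were seen. Against it, LPS after air raised all 9 genes in C57 (15.1% of all genes rose) and 6 of 9 in AKR (5.54%). Ly96 rose by 1.28 ± 0.28 in C57 (adjusted p = 0.00446), and in AKR it differed by 0.35 ± 0.32 (adjusted p = 0.522), the opposite order to that against saline. In AKR, Ticam2 (0.26 ± 0.17, adjusted p = 0.359) and Tlr4 (0.36 ± 0.19, adjusted p = 0.206) did not pass either. Without the doubted arrays Tlr4 passed (adjusted p = 0.0359), which made 7 of 9 where 8.01% of all genes rose. AKR smoke LPS against AKR room air alone again gave 9 of 9 (9.36% of all genes), among them Ly96 by 1.38 ± 0.35 (adjusted p = 0.00954). Both sets of comparisons share their LPS arrays.

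**Figure D3:**
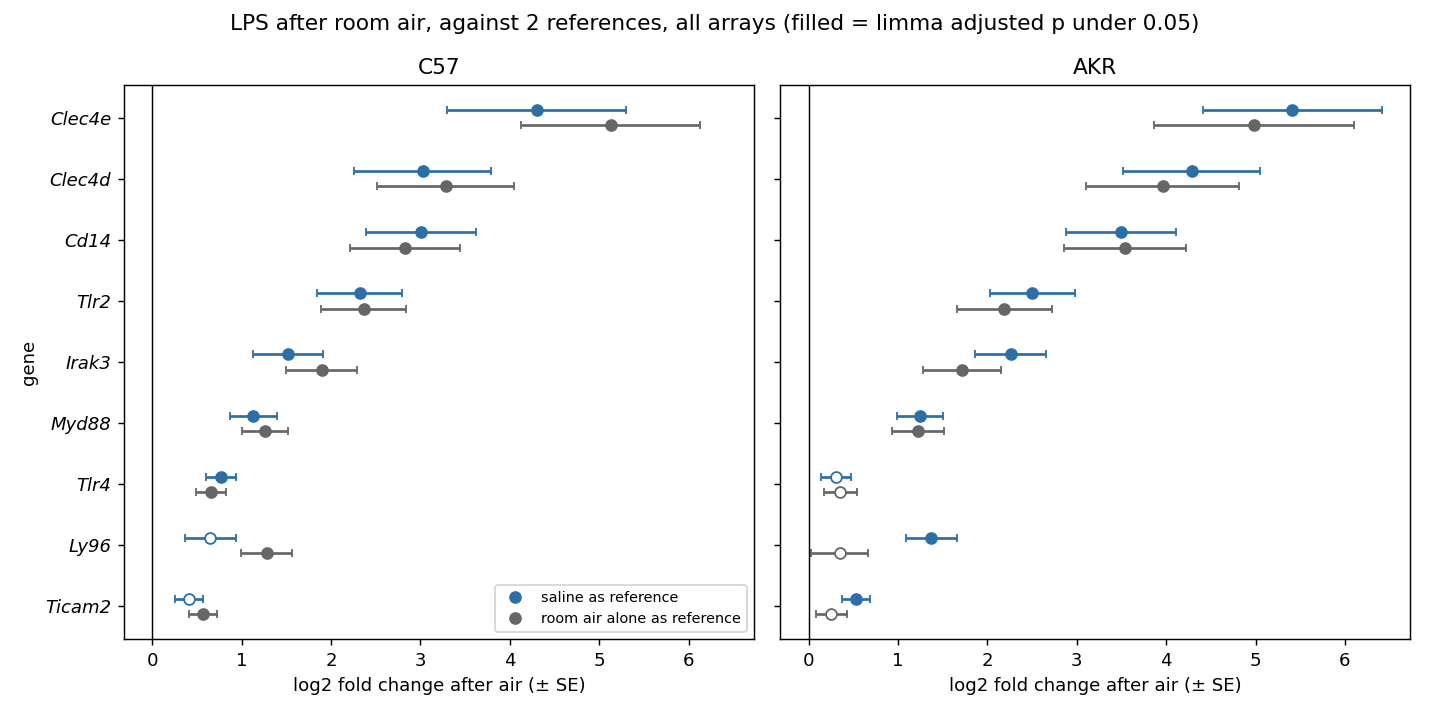
Log2 fold change of LPS after air (horizontal axis, ± SE) for the 9 genes against saline (blue) and against room air alone (grey), C57 on the left and AKR on the right, all arrays; filled points passed at an adjusted p under 0.05. The references give like values for Cd14, Tlr2 and Myd88 and different ones for Ly96, at 0.65 and 1.28 in C57 and 1.37 and 0.35 in AKR.

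The references themselves were then compared. Ly96 read 9.47, 9.15 and 9.06 in C57 breathing room air alone, and with saline it was 0.63 ± 0.28 higher (adjusted p = 0.792). In AKR it read 8.73 and 9.34 in room air alone for 3 weeks, and with saline it was lower, by -1.02 ± 0.32 (adjusted p = 0.113; 0.054 without the doubted arrays). In neither strain did any gene pass: 0 of 9 in C57 (0.0136% of all genes were called) and 0 of 9 in AKR (0.687%). At an unadjusted p under 0.05, Ly96 alone did so in each strain, with 6.17% of all genes in C57 and 18.4% in AKR. Arrays did not overlap for 4 genes in C57, all higher with saline (7.94% of all genes), and for 6 in AKR, all lower with saline (27.2%). For Ly96, Irak3 and Clec4e all saline arrays were above room air in C57 and below it in AKR. In both of these AKR groups Clec4e was under the 40th percentile of every array, so its direction in AKR rests on dim readings. Marker means of several cell types went the same opposite ways without overlap: B cell markers from 0.48 to 0.83 in room air up to 1.33 to 1.55 with saline in C57, and from -0.24 to 0.0056 down to -1.01 to -0.73 in AKR. Natural killer cell markers went from 0.070 to 0.35 up to 0.78 to 0.97 in C57 and from -0.62 to -0.22 down to -1.76 to -1.26 in AKR. Monocyte markers went from -0.40 to -0.24 up to 0.0038 to 0.22 in C57 and from -0.63 to -0.34 down to -1.16 to -0.94 in AKR, and T cell markers from -0.052 to 0.30 up to 0.37 to 0.50 and from -0.058 to 0.046 down to -0.84 to -0.55. These are each array's mean of centred log2 values, and their part in the readings of Ly96, Irak3 and Clec4e was not tested. The difference between the strains in the saline effect, also added after the data were seen, was -1.65 ± 0.43 for Ly96 (adjusted p = 0.0503), -0.92 ± 0.59 for Irak3 (adjusted p = 0.414) and -1.26 for Clec4e (adjusted p = 0.701). Over all genes 1.48% passed. Without the doubted arrays Ly96 (± 0.37, adjusted p = 0.0156) and Irak3 (± 0.21, adjusted p = 0.0157) passed and Clec4e did not (± 0.45, adjusted p = 0.115), with 4.02% of all genes. C57 room air lasted 6 weeks and AKR room air 3 weeks in this comparison. Neither exposure time nor set of arrays can be told apart from strain in it.

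The strains were compared where they share a set of arrays. In room air alone for 6 weeks, 0 of 9 genes passed (limma called 2.69% of all genes). At an unadjusted p under 0.05, 0 of 9 and 11.7% of all genes did. Without the doubted arrays the unadjusted count was 1 of 9, with 0 of 9 passing after adjustment and 543 genes called. Errors and intervals below are with all arrays. The doubted arrays are in neither group but widen them through the shared estimate of spread. Cd14 read 7.80, 8.10 and 8.30 in C57 and 7.25, 7.78 and 7.76 in AKR, lower in AKR by -0.47 ± 0.61 (adjusted p = 0.888, 95% interval -1.73 to 0.80). Irak3 read 8.68, 8.53 and 8.54 in C57 and 8.38, 8.51 and 8.36 in AKR (-0.17 ± 0.39, adjusted p = 0.953). Arrays of the strains did not overlap for these 2 genes, against 9.86% of all genes lower without overlap. For Tlr4 the interval of the difference ran from -0.16 to 0.53 and for Ly96 from -0.57 to 0.60.

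Whether the LPS response itself differed by strain was tested as AKR change minus C57 change after room air. The AKR and C57 arrays of this test lie in different sets, so strain and set of arrays cannot be told apart. A shift between the sets cancels in this difference, but a difference in their scale does not. The highest value per array was 13.74 to 13.96 in the set with C57 and 14.12 to 14.54 in the other. With all arrays limma called 0 of 9, and 1.14% of all genes, and at an unadjusted p under 0.05 it gave 0 of 9 and 11.2%. The differences were 1.26 ± 1.08 for Clec4d (95% interval -0.97 to 3.50), 1.11 ± 1.42 for Clec4e, 0.74 ± 0.56 for Irak3, 0.72 ± 0.40 for Ly96 and 0.48 ± 0.87 for Cd14. Tlr4 was the only gene of the 9 with a smaller change in AKR, at -0.47 ± 0.24 (95% interval -0.95 to 0.02, adjusted p = 0.473). Tlr2 (0.18), Ticam2 (0.12) and Myd88 (0.12) had values below their SE of 0.67, 0.22 and 0.37. Without the doubted arrays, 2 of 9 passed (2.73% of all genes): Clec4d (± 0.29, adjusted p = 0.0178) and Irak3 (± 0.20, adjusted p = 0.0424). With room air alone as the reference, 0 of 9 passed with all arrays (0.741% of all genes called) or without the doubted pair (3.11%), and the difference turned negative for Ly96 (-0.93 ± 0.43, adjusted p = 0.236), Irak3 (-0.18), Clec4e (-0.15), Tlr2 (-0.17), Ticam2 (-0.31) and Myd88 (-0.033). For Clec4d it was 0.68 ± 1.15 (adjusted p = 0.771). With that reference, exposure time cannot be told apart from strain either. Of all genes called in this interaction, 70.7% were higher with saline as the reference and 9.17% with room air.

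Smoke was compared with air at the same instillation. With saline, 0 of 9 genes passed in C57 (limma called 0% of all genes) or in AKR (0.034%). At an unadjusted p under 0.05 the counts were again 0 of 9, with 6.16% of all genes in C57 and 6.42% in AKR. Without the doubted arrays the unadjusted count in AKR was 3 of 9. After adjustment 0 of 9 passed there, and limma called 49 of 14705 genes. In AKR, Cd14 was 0.64 ± 0.61 and Ly96 0.57 ± 0.28 higher with smoke, and Tlr4 differed by -0.27 ± 0.17, lower on every smoke array (5.33% of all genes were lower without overlap). All 3 AKR smoke saline arrays had Saa3 readings of 8.09 to 8.65, as did AKR air saline 3 (8.95), whereas the other AKR air saline arrays read 6.22 and 6.38. The part of this in the Cd14 readings was not tested. In C57, Cd14 (1.05 ± 0.61), Tlr2 (0.65 ± 0.48) and Clec4d (0.59 ± 0.77) were highest on the array labelled C57 smoke saline 3, and without the doubted arrays the differences were 0.12, 0.17 and -0.33.

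With LPS, limma called 0 of 9 genes for smoke against air in C57 and 0% of all genes (0 of 9 and 1.48% at an unadjusted p under 0.05), and without the doubted arrays the differences ran from 0.07 to 0.56, still with 0 passing. In AKR, 0 of 9 passed with all arrays (limma called 0.0068% of all genes), and at an unadjusted p under 0.05 Ly96 alone did, with 15.9% of all genes. All 9 had a higher mean after smoke, 6 of them with arrays that did not overlap, as had 23.9% of all genes. Ly96 differed by 1.03 ± 0.32 (95% interval 0.38 to 1.69, adjusted p = 0.173), and without AKR air LPS replicate 2 it rose, by 1.42 (adjusted p = 0.0257). Irak3 differed by 0.87 ± 0.44 (adjusted p = 0.334), and without the doubted arrays it rose (± 0.16, adjusted p = 0.00939), 1 of 9 genes where 1.55% of all genes were called. Clec4e differed by 0.61 ± 1.12 and Tlr4 by 0.34 ± 0.19. The interaction of smoke with LPS in AKR passed for 0 of 9 genes (limma called 0% of all genes), and at an unadjusted p under 0.05 for 1 of 9, Tlr4, with 6.75% of all genes. Its values were 0.82 ± 0.59 for Irak3 (adjusted p = 0.784) and 0.61 ± 0.25 for Tlr4 (adjusted p = 0.73, 95% interval 0.09 to 1.12).

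Other genes of the same pathways were read through 7 lists, with all arrays. These lists too were chosen with earlier results of these data known. Of all genes tested, 11.5% rose in C57 after air, 9.45% in AKR after air and 16.9% in AKR after smoke. Of all genes called in these comparisons, 72.7%, 56.1% and 53.8% were higher and the others lower. Of 18 other Toll-like receptors and LPS-binding partners, 5 rose with LPS after air in C57, 13 in AKR after air and 13 in AKR after smoke, and 0 fell. The median changes were 0.52, 1.22 and 1.19. Tlr1, the lipoprotein receptor that pairs with Tlr2, rose by 2.29 ± 0.26 in AKR (adjusted p = 7.14e-06) and differed by 0.63 ± 0.26 in C57 (adjusted p = 0.0989). Tlr6, the other partner of Tlr2, rose by 1.18 ± 0.33 in C57 and 1.70 ± 0.33 in AKR, and Itgam, an integrin of myeloid cells, by 2.04 ± 0.53 and 2.68 ± 0.53. For Tlr13, a sensor of bacterial ribosomal RNA, the values were 1.23 ± 0.42 in C57 (adjusted p = 0.0503) and 2.50 ± 0.42 in AKR (adjusted p = 0.000385). In the strain by LPS interaction 2 of these 18 passed, with 1.14% of all genes.

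Of 19 signalling genes below the receptors, 8 rose in C57 after air, 8 in AKR after air and 11 in AKR after smoke, where 1 fell. Ikbke, a kinase of the interferon route, rose by 2.61 ± 0.56 in C57 and 2.54 ± 0.56 in AKR, and Irak2, a kinase partner of Myd88, by 1.06 ± 0.26 and 1.12 ± 0.26. Of 15 other brakes on this signalling, 8, 9 and 11 rose and 0 fell. Tnfaip3, the enzyme A20 that shuts down NF-kappa-B, rose by 2.41 ± 0.52 in C57 and 3.27 ± 0.52 in AKR. Siglece, an inhibitory lectin of neutrophils and macrophages, rose by 2.84 ± 0.69 and 3.39 ± 0.69, and Socs1, an inhibitor of cytokine signalling, by 1.95 ± 0.41 and 1.99 ± 0.41. Lilrb4a, an inhibitory receptor of myeloid cells, rose by 1.80 ± 0.46 and 2.76 ± 0.46.

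Of 17 other C-type lectins and their signalling genes, 9, 13 and 12 rose, and 1 fell in AKR after smoke. Fcer1g, the signalling chain that Clec4e uses, rose by 1.39 ± 0.37 in C57 and 2.61 ± 0.37 in AKR, and Clec4n (Dectin-2), a neighbouring lectin of the same family, by 1.60 ± 0.40 and 2.43 ± 0.40. Clec5a, another myeloid lectin, rose by 2.97 ± 0.68 and 3.39 ± 0.68. Of 6 chemoattractant receptors, the family to which Fpr2 belongs, 2, 3 and 5 rose. C5ar1, the receptor of complement C5a, rose by 1.46 ± 0.38 and 2.06 ± 0.38. Cxcr2, the neutrophil chemokine receptor, rose by 3.69 ± 0.71 in AKR (adjusted p = 0.00102), and its value in C57 was 1.76 ± 0.71 (adjusted p = 0.0893).

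Of 16 cytosolic sensors and inflammasome genes, 13, 14 and 13 rose and 0 fell. Nlrp3, the core of an inflammasome, rose by 2.81 ± 0.66 in C57 and 4.03 ± 0.66 in AKR, and Casp4, the intracellular receptor of LPS, by 1.42 ± 0.38 and 1.99 ± 0.38. Of 15 scavenger and soluble recognition molecules, 6, 6 and 5 rose and 0, 1 and 1 fell. Msr1, a scavenger receptor of macrophages, rose by 2.63 ± 0.55 and 3.28 ± 0.55, and Marco, the scavenger receptor of alveolar macrophages, by 1.13 ± 0.32 and 0.95 ± 0.32 (adjusted p = 0.0442).

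**Figure D4:**
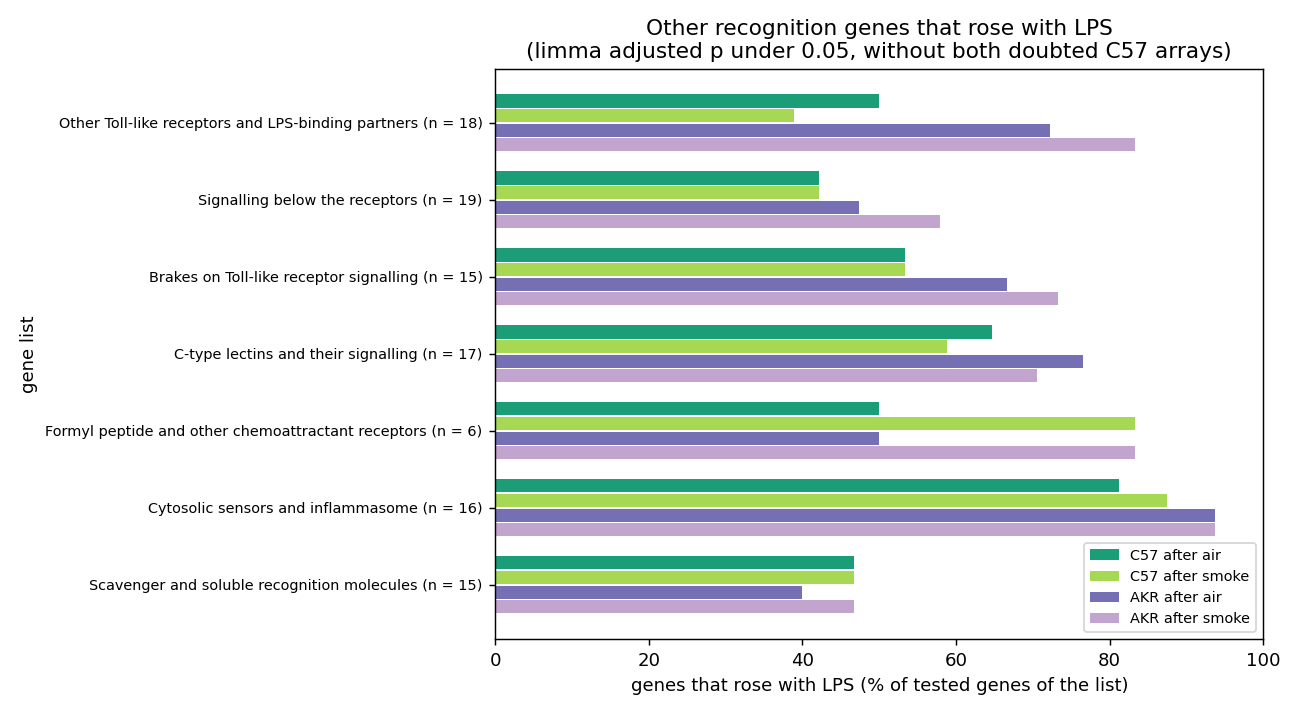
Share of the tested genes of each of 7 lists (vertical axis, number tested in brackets) that rose with LPS (horizontal axis, percent, limma adjusted p under 0.05), by strain and exposure, without the 2 doubted C57 smoke arrays. Bars are longest for cytosolic sensors, where 13 of 16 rose in C57 after air, and every list has members that rose in all 4 comparisons, where 15.2%, 10.9%, 11.8% and 18.6% of all genes rose in C57 after air, C57 after smoke, AKR after air and AKR after smoke.

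Markers of other cell types were read beside these genes. Of 12 tested neutrophil markers, 1 rose with LPS after air in C57, where 11.5% of all genes rose, and 9 without the doubted arrays (15.2% of all genes). In AKR 10 rose after air (9.45%) and 10 after smoke (16.9%). The mean of all 14 measured, on each gene's own centred log2 scale, lay between -0.47 and 0.17 on the C57 air saline arrays and between 1.06 and 1.10 on the C57 air LPS arrays, and in AKR between -1.07 and -0.998 with saline and between 1.00 and 1.43 with LPS. Camp, Elane and Mpo, granule genes made in immature neutrophils, stayed low, with group means between 5.71 and 6.43. The granule genes Ngp and Ltf are also on this list, and their values are not given here. Of 11 markers of monocytes and recruited macrophages, 5, 9 and 11 rose. Their mean was 0.00 to 0.22 with saline and 0.80 to 1.27 with LPS in C57 after air, and -1.16 to -0.94 and 0.24 to 0.93 in AKR. In AKR room air alone for 3 weeks it was -0.63 to -0.34, above all the AKR air saline arrays, as was Ly96. Of 9 alveolar macrophage markers, 2, 2 and 3 rose, and 1 fell in C57 after air. Of 6 B cell markers, 6 fell in C57 after air, where 4.3% of all genes fell. In AKR 0 passed with all arrays and 3 rose without the doubted pair (11.8% of all genes rose), and all 6 passed the strain by LPS interaction (1.14% of all genes). The part of cell numbers in the changes of Ly96, Irak3, Clec4e and the other receptors was not tested.

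The genes followed each other closely over the 11 group means, which share arrays and treatment and are described without a test. Pearson's r was 0.994 between Clec4e and Clec4d and 0.994 between Tlr2 and Myd88. Ly96 stood furthest from the rest, with r = 0.668 to Cd14 and 0.924 to Ticam2. Outside the list, the genes most like Clec4e over the 11 means were Siglece (0.997), Il1rn (0.997), Nfkbie (0.996) and Ms4a6d (0.996). Those most like Cd14 were Ccl20 (0.992), Acod1 (0.992), Psme2 (0.991) and Ikbke (0.991), and those most like Tlr4 were Gnl3 (0.985), Zfat (0.977), Senp1 (0.975) and Zeb2os (0.973). Over the 31 single arrays these values were 0.988 to 0.994 for the genes like Clec4e and 0.806 to 0.927 for those like Tlr4.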

How the data were processed

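Whole lung RNA was hybridised to Affymetrix arrays. The deposited values are log2 intensities per probe set, which the authors made with RMA (background correction, normalization and a summary over probes) per the submitters' processing notes; its version is not given in the sources used here. The number of arrays limits the precision. The annotation lists 23410 of 35556 probe sets, 21789 with 1 symbol and 1621 with several (not used). Current symbols came from RefSeq by Entrez identifier (99.6% found). Of 19938 genes, the 14705 that exceeded their array's 40th percentile on at least 3 arrays were tested.

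limma 3.58.1 (R 4.3.3) fitted 11 group means to 31 arrays (20 residual degrees of freedom), with contrasts and moderated variances. Two-sided p-values were adjusted by Benjamini-Hochberg over all tested genes and called at 0.05. Errors after ± are SE of log2 differences unless SD is written. "Rose" and "fell" mean passed. The fit was also run on simulated data with independent noise and known changes in a single group. Those data held no mislabelled arrays and no sets of arrays, so the run does not bear on these limits. Genes outside the 9 were named by rule: up to 5 per list with the largest absolute change, averaged over both strains after air (some are given only in the counts), and the 4 most correlated with Tlr4, Cd14 and Clec4e. Members, lists and markers were chosen with earlier results of these data known. Comparisons with room air alone and the strain difference in the saline effect were added after the data were seen. Same-numbered arrays deviated together in saline against room air alone in C57 (r from 0.23 to 0.41 over 3 pairs). They also did so in smoke against air with LPS in AKR (r of 0.44 and 0.54 over 2 pairs). In both comparisons the block changed no call of the 9 genes, and the labels name no pairing. Plots used matplotlib 3.10.9 (Python 3.11.15).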

Additional observations from a re-analysis of the deposited data

Results flagged for a closer look

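Without the 2 doubted C57 arrays, the LPS change after air was larger in AKR than in C57 by 1.26 for Clec4d and by 0.74 for Irak3, and both differences passed the test of the interaction. Neither passed with all arrays or with room air alone as the reference. Strain and set of arrays cannot be told apart in this test. The AKR air saline readings of Clec4d are dim, at or under the 34.8th percentile of the array.

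Saline against room air alone went opposite ways in the strains on every array, with and without the doubted pair: Clec4e was 0.83 higher in C57 and changed by -0.43 in AKR, Irak3 by 0.37 and -0.55, and Ly96 by 0.63 and -1.02. The AKR readings of Clec4e are dim, under the 40th percentile of the array in both groups, and means of B cell, natural killer cell, T cell and monocyte markers moved the same opposite ways. The test of the difference is given above, where Ly96 and Irak3 passed without the doubted arrays and Clec4e did not.

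For Clec4d, smoke against air with saline gave -0.33 in C57 and 0.25 in AKR once the doubted pair was left out, and this difference was not tested. Neither value passed, and C57 smoke saline then had fewer than 3 arrays. The AKR readings are dim, from the 33.9th to the 34.8th percentile of the array with air and from 35.7 to 42.1 with smoke. Groups had at most 3 arrays, too few to test for outlying arrays.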

How the results depend on the processing

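The counts of genes that passed moved with few choices. Leaving out both doubted arrays gave 8 for LPS after smoke in C57, 2 for the strain by LPS interaction and 1 for smoke with LPS in AKR, each 0 with all arrays. Leaving out 1 array at a time gave 0 to 7 for LPS after smoke in C57 (7 without C57 smoke LPS replicate 3), 0 to 1 for smoke with LPS in AKR (1 without AKR air LPS replicate 2), 7 to 7 for LPS after air in C57, 7 to 8 in AKR, 9 to 9 for LPS after smoke in AKR, and 0 elsewhere. The remaining alternatives (other filters, median centring, quantile normalization, the mean of probe sets, robust moderation, only the groups compared, a replicate block) kept every count within 1.5 times. With room air alone as the reference, 6 strain by LPS differences reversed: Ly96 -0.93, Ticam2 -0.31, Irak3 -0.18, Tlr2 -0.17, Clec4e -0.15 and Myd88 -0.033. That alternative replaces the saline arrays by those of room air alone. Clec4d, smoke against air with saline in C57, was -0.33 without the doubted pair, and between -0.33 (without C57 smoke saline replicate 3) and 1.06 with 1 array left out. Counts over all genes moved more. For LPS after air in AKR, 2479 genes were called, 1485 with only the groups compared and 1368 without AKR air LPS replicate 2. In C57 they were 2316, and 1121 to 1344 in 4 of 6 fits without 1 array. After smoke they were 4631 in AKR, 2613 or 2365 without either LPS array, and 0 in C57, 3048 without the doubted pair and 1881 without C57 smoke LPS replicate 3. The strain by LPS interaction had 167, 402 without the pair and 74 to 111 in 6 fits without 1 array. Smoke with LPS in AKR had 1, 228 without the pair and 435 without AKR air LPS replicate 2. Saline in AKR had 101, 326 without the pair, 62 with the replicate block, 0 with only the groups compared and 1 to 167 in fits without 1 array. Smoke with saline in AKR had 5, 49 without the pair, 79 if AKR smoke saline replicate 3 was dropped and 26 if replicate 3 of AKR air saline was, 1 or 2 without another array, 1 with only the groups compared or with arrays centred on their medians, 9 with the filter at the 60th percentile, and 12 with quantile normalization or robust moderation. Saline in C57 had 2 and 32 with only the groups compared, and room air at 6 weeks 396 and 228 to 254 in 4 fits without 1 array. With the replicate block the counts were 8 for LPS after air in both C57 and AKR (Ticam2 passed in C57, adjusted p = 0.0451, limma). They were 9 for LPS after smoke in AKR, and no other call of these 9 genes changed. Same-numbered arrays deviated together in saline against room air in C57 and in smoke against air with LPS in AKR. Of the other values for single genes, 1034 kept direction and side of the threshold, 26 gained the call and 6 lost it. Dim readings of Clec4e and Clec4d without LPS limit how well their folds are known.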
